A study of Homo sapiens with 12 samples.

Results

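Heat shock proteins, their co-chaperones and the cytosolic chaperonin are encoded by the 34 genes described here, out of 60664 genes in the count table. The members were taken by gene symbol: 6 genes of the HSP110 and cytosolic HSP70 families, 2 cytosolic HSP90 genes, the 2 mitochondrial chaperonin genes, the small heat shock protein HSPB1, 6 DNAJ co-chaperones, BAG3, the heat shock factors HSF1 and HSF2, 6 HSP90 co-chaperones and the 8 subunits of the chaperonin CCT. All 34 were found and all 34 passed the filter on low counts. Messenger RNA was measured in MDA-MB-231, an established human triple-negative breast cancer line of mesenchymal character, recorded as wild type. Cells grew to 70 to 80% confluence at pH 7.4 and were then kept for 24 h at pH 7.4, 6.9 or 6.4, and each medium gave 4 libraries. The sample labels give the intermediate medium as pH 6.9 and the protocol gives pH 6.7, and pH 6.9 is the name used here. The labels number the libraries as repeats 1 to 4 and do not say that these are separate cultures, so p-values measure only the spread between these libraries, which may be technical. The series title asks about acidosis, hypoxia and the spread of cancer cells; every library here is the same line, with no drug, gene change or hypoxia named in its labels.

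Molecular chaperones keep newly made and damaged proteins from aggregating. HSP70 proteins such as HSPA8 bind short exposed stretches of a client and release them in an ATP-driven cycle, which DNAJ proteins start by delivering clients and triggering ATP hydrolysis, and which HSP110 proteins such as HSPH1 complete by exchanging the nucleotide. Clients can pass through the adaptor STIP1 to HSP90, whose own cycle is tuned by AHSA1, PTGES3 and other co-chaperones. The ring-shaped chaperonin CCT, built from 8 different subunits, folds tubulin and actin, and HSPD1 with its lid HSPE1 does a comparable job inside mitochondria. HSF1 is the transcription factor that raises many of these genes when unfolded proteins accumulate; it binds heat shock elements, inverted repeats of the letters GAA.

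The heat shock element is shown first because it is the sequence that many members share. RefSeq promoter windows of 300 bases, 250 before the start site and 50 after it (GRCh38.p14), were at hand for 31 of the 34 members. Both strands were searched for an element of 3 units, GAANNTTCNNGAA, which reads TTCNNGAANNTTC on the other strand. A match was found for 7 of the 31 members, 22.6%, against 0.608% of the 27305 genes with a window. The shorter element of 2 units, GAANNTTC or TTCNNGAA, each its own reverse complement and contained in every 3-unit match, was found for 18 of 31 members, 58.1%, against 16.2% of genes. The 3-unit matches follow with capitals marking the matched letters, and the first line is from the constitutive HSP70 gene HSPA8, the member with most counts at pH 7.4.
HSPA8 (chr11:123062171-123062199, minus strand): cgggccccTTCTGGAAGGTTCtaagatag
HSPA8, second match (chr11:123062346-123062374, minus strand): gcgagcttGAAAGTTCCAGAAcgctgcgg
DNAJA1 (chr9:33025268-33025296, plus strand): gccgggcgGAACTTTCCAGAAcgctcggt
DNAJB6 (chr7:157336843-157336915, plus strand): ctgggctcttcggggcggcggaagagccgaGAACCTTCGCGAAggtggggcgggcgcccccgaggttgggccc
HSP90AA1 (chr14:102087112-102087140, minus strand): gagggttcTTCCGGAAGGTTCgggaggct
HSP90AB1 (chr6:44247748-44247820, plus strand): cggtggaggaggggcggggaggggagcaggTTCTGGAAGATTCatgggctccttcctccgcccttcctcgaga
HSP90AB1, second match (chr6:44247823-44247851, plus strand): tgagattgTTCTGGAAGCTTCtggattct
HSPD1 (chr2:197500062-197500090, minus strand): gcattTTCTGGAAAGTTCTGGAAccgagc
CHORDC1 (chr11:90223084-90223112, minus strand): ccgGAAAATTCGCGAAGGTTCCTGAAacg

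Counted from the start site of each window, the first HSPA8 match lay from -55 to -43 and the HSP90AA1 match from -88 to -76, while the DNAJA1 match lay just after the start, from 4 to 16. The CHORDC1 run, from -60 to -38, and the HSPD1 run, from -245 to -228, each held overlapping matches. HSPD1 and HSPE1 are transcribed in opposite directions on chromosome 2. The HSPD1 window from 197500225 to 197500524 overlapped the HSPE1 window by 204 bases and held 0 matches. The HSPD1 window with the run, from 197499791 to 197500090, overlapped the HSPE1 window by 0 bases. No match was found in the windows of HSPH1, which says only that these letters are not in those 300 bases. In the most acid medium 2 of the 7 genes with a match fell against pH 7.4 (HSPA8 and DNAJA1) and the other 5 were not called; over all genes tested 30.3% were called in that comparison, so this number is near the background.

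Total counts ran from 21060767 to 50643233 per library. Fewer genes were detected in repeat 1 at pH 7.4 (17841) and repeat 2 at pH 6.9 (21628) than in the other 10 libraries (23113 to 27384), so calls are also given without them where that matters. Genes of the line's mesenchymal state were abundant, with VIM at 1617 to 2642 CPM (TMM-scaled counts relative to library size) and CD44 at 666 to 1330 CPM, whereas ESR1 and PGR had at most 14 counts and 1 count in any library. The sum of 5 mesenchymal genes, VIM and CD44 among them, was 4987 to 5325 CPM at pH 7.4, 5282 to 5689 CPM at pH 6.9 and 5784 to 6009 CPM at pH 6.4, and 5 immune markers summed to at most 1.09 CPM. Of 5 fibroblast markers 4 were detected in all 12 libraries and DCN was at 0 in 9 of them. The sum of the 5 was 70.4 to 105 CPM at pH 7.4, 54.0 to 77.8 CPM at pH 6.9 and 33.2 to 48.1 CPM at pH 6.4. The mesenchymal and fibroblast sums thus both moved with pH, and their part in the results was not tested. In bulk RNA, fewer cells of a kind and less RNA per cell cannot be told apart.

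In the most acid medium, pH 6.4, the HSP110 gene HSPH1 fell 2.64-fold, the HSP70 genes HSPA8 and HSPA1A and the DNAJ genes DNAJA1 and DNAJB1 fell 1.32-fold to 1.46-fold against pH 7.4, and the CCT subunit CCT2 fell 1.22-fold. DNAJB4 and the HSP90 co-chaperone PTGES3 rose, 1.38-fold and 1.21-fold. That makes 8 of 34 members called by edgeR's quasi-likelihood test at a Benjamini-Hochberg adjusted p under 0.05, 2 higher and 6 lower, or 23.5%. Over all 17544 genes tested the share was 30.3%, with 15.6% higher and 14.7% lower, so the number of called members was below the background. The members' median log2 change was -0.03 and that of all genes -0.00. Libraries of the 2 media did not overlap for 7 members, against 27.9% of all genes. At pH 6.9 against pH 7.4 only HSPH1 and DNAJA1 fell and 0 members rose (0 also at an unadjusted p under 0.05, and 0 by DESeq2 and by limma-voom); this is 5.88% of members against 0.724% of genes, 0.41% in the lower direction. Between pH 6.9 and pH 6.4, HSPH1, DNAJA1 and DNAJB1 fell and DNAJB4 and HSF2 rose, 14.7% of members against 17% of genes, of which 8.83% were higher and 8.2% lower; the libraries did not overlap for 6 members and 20.4% of genes. The 3 comparisons share libraries, so their values are not independent of each other.

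Libraries of the same repeat number deviated together in the comparisons that involve pH 6.4, so a fit with that number as a block is given beside the results it changes. The block gave 4 members higher and 10 lower at pH 6.4 against pH 7.4, where 41.6% of all genes were then called, and 8 higher and 3 lower against pH 6.9, with 31.1% of all genes. Repeat 3 at pH 6.4 and the pair of libraries with few detected genes also moved the counts. Without these 3 libraries, a choice made after the data were seen, 5 members were higher at pH 6.4 against pH 7.4 and 10 against pH 6.9, where 41.8% and 34.7% of genes were called. With scaling by library size alone 0 members were higher and 12 lower at pH 6.4 against pH 7.4 in edgeR (2 and 13 at an unadjusted p under 0.05), with HSPE1, CHORDC1, CACYBP, CCT3, CCT5 and CCT7 added, 30.2% of genes called and the median of all genes moved to -0.08. In that fit 40.4% of the called genes were higher, against 51.4% with TMM. DESeq2 called 2 members higher and 7 lower, with 34.9% of genes. In the comparison of pH 6.9 with pH 7.4, scaling by library size alone again gave 2 members lower, with 0.604% of genes called.

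**Figure D1:**
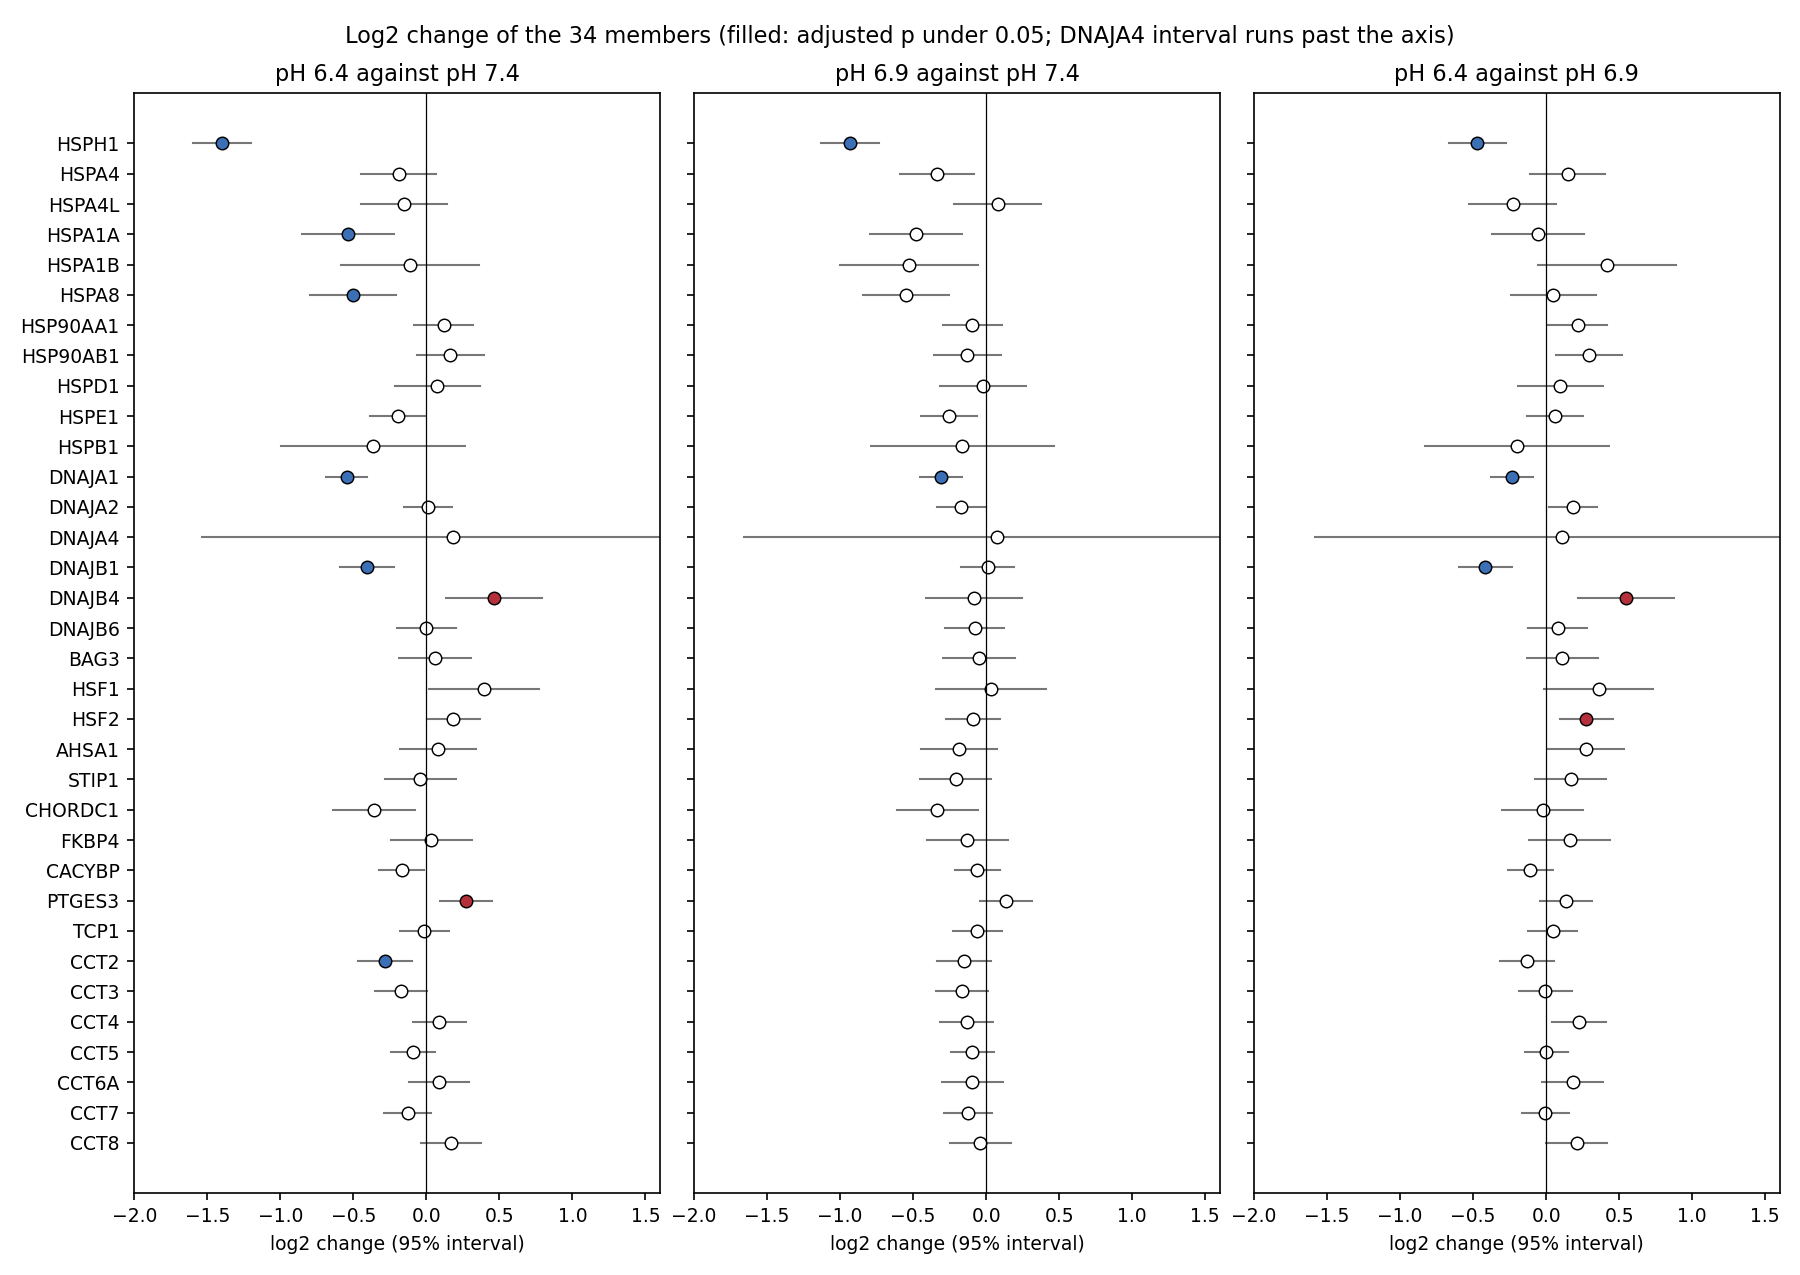
Log2 change of each of the 34 members, by role from top to bottom, in the 3 comparisons; points are edgeR estimates, lines their 95% intervals, and filled points have an adjusted p under 0.05 (blue lower, red higher). HSPH1 stands at -1.40, -0.93 and -0.47 from left to right, and every other estimate lies between -0.55 and 0.55.

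Of the 6 HSP110 and HSP70 genes 3 fell at pH 6.4 against pH 7.4, and all 6 estimates were below 0, with a median of -0.34. HSPH1, the HSP110 nucleotide exchange factor of HSP70, had the clearest change of all members. It stood at 454, 416, 499.7 and 547 CPM in repeats 1 to 4 at pH 7.4, at 263, 228, 241 and 274 CPM at pH 6.9, and at 178, 194, 170.2 and 185 CPM at pH 6.4. The 3 media did not overlap, and the order of the means followed the acidity of the medium. Its mean ± SD over the 4 libraries was 479 ± 56.8, 252 ± 20.6 and 182 ± 10.0 CPM in the order of falling pH; all errors after ± are SDs with n = 4. Against pH 7.4 the log2 change was -1.40 at pH 6.4 (SE 0.094, adjusted p = 8.48e-07) and -0.93 at pH 6.9 (SE 0.093, adjusted p = 0.000923, edgeR). From pH 6.9 to pH 6.4 it fell by a further 0.47 (SE 0.092, adjusted p = 0.00605). HSPH1 ranked first by p among the 17544 genes at pH 6.9 against pH 7.4 and sixth at pH 6.4. Repeats 1 and 2 alone gave -1.22 at pH 6.4, repeats 3 and 4 alone gave -1.55, and the call held in each pair. At pH 6.9 the call was lost within repeats 3 and 4 (adjusted p = 0.0742 with a log2 change of -1.03), as was that between pH 6.9 and pH 6.4 (adjusted p = 0.213). No 75-base stretch of its longest coding transcript is shared with another gene, and no annotated gene overlaps it on chromosome 13 (31134974 to 31162388).

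The relatives of HSPH1 behaved otherwise. HSPA4, a second HSP110 gene, had 335 ± 15.5, 265 ± 24.8 and 294 ± 57.4 CPM at pH 7.4, 6.9 and 6.4, and the unblocked fit to all 12 libraries did not call it in any comparison; without the 3 libraries it was higher at pH 6.4 than at pH 6.9 (log2 0.31, adjusted p = 0.0354). Its pH 6.9 libraries, 241 to 288 CPM, lay below all pH 7.4 libraries, 321 to 350.0 CPM, with an adjusted p of 0.245. At pH 6.4 HSPA4 spread widely, from 221 CPM in repeat 3 to 361 CPM in repeat 2. HSPA4L, the third of the family and the least abundant, had 60.0 ± 12.7, 63.3 ± 5.85 and 54.0 ± 6.52 CPM at pH 7.4, 6.9 and 6.4 and was not called either (95% interval at pH 6.4 against pH 7.4 from -0.45 to 0.14 on the log2 scale), except as lower at pH 6.4 without the 3 libraries (-0.34, adjusted p = 0.0253). The log2 ratio of HSPH1 to HSPA4 counts, taken within each library so that depth cancels, was 0.51 ± 0.23 at pH 7.4, -0.07 ± 0.20 at pH 6.9 and -0.67 ± 0.22 at pH 6.4. These ratios did not overlap between any 2 media, with the smallest p that an exact 2-sided permutation test of 4 against 4 can give, 0.0286, in each case. Adjusted over the 15 ratio tests made the value was 0.0857, so none passed.

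Among the cytosolic HSP70 genes, the constitutive HSPA8 carried most of the counts. It stood at 2407, 2467, 2459 and 2641 CPM in repeats 1 to 4 at pH 7.4, at 1778, 1768, 1593 and 1673 CPM at pH 6.9, and at 1613, 2289, 1242 and 1911 CPM at pH 6.4. All 8 acid libraries lay below all 4 at pH 7.4, and the pH 6.4 libraries bracketed those at pH 6.9, with SDs of 444 CPM and 87.2 CPM. The change at pH 6.4 was called (log2 -0.50, SE 0.14, adjusted p = 0.0137, edgeR). That at pH 6.9, of similar size and tighter libraries, was not (log2 -0.55, SE 0.14, adjusted p = 0.0937). Before adjustment the edgeR p-values were 0.00262 at pH 6.4 and 0.00125 at pH 6.9, where 30.3% and 0.724% of all genes were called. At pH 6.9 HSPA8 was called by DESeq2 (adjusted p = 0.00993) and in a fit to only the 2 media compared (adjusted p = 0.00402), each with a log2 change of -0.55. The block by repeat number also called it there (-0.55, adjusted p = 0.0155), though these 2 media were not taken as paired. Between pH 6.4 and pH 6.9 the estimate was 0.05, with a 95% interval from -0.24 to 0.34. Repeats 1 and 2 gave -0.31 at pH 6.4 (adjusted p = 0.141) and repeats 3 and 4 gave -0.68 (adjusted p = 0.0636), so neither pair of repeats alone gave the call.

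HSPA1A and HSPA1B, the stress-inducible HSP70 pair on chromosome 6, were both scarce. HSPA1A stood at 22.9, 25.4, 21.8 and 20.4 CPM at pH 7.4, at 17.4, 18.7, 13.3 and 15.3 CPM at pH 6.9, and at 18.4, 17.9, 12.3 and 13.8 CPM at pH 6.4. HSPA1B stood at 48.7, 41.5, 31.6 and 30.6 CPM at pH 7.4, at 27.4, 31.8, 23.7 and 22.9 CPM at pH 6.9, and at 39.5, 48.6, 20.3 and 32.5 CPM at pH 6.4. HSPA1A lay below pH 7.4 in every acid library, and HSPA1B overlapped between the media. HSPA1A fell at pH 6.4 (log2 -0.54, SE 0.15, adjusted p = 0.0135, lost within repeats 1 and 2 at 0.0799). At pH 6.9 it was not called (log2 -0.48, adjusted p = 0.168), except in the fit with the block by repeat number (-0.49, adjusted p = 0.0122). HSPA1B was not called in either medium against pH 7.4 (adjusted p = 0.746 and 0.349). Without repeat 3 at pH 6.4 HSPA1B was higher there than at pH 6.9 (0.61, adjusted p = 0.0194). The pair share 71.2% of the 75-base stretches of the HSPA1A transcript, so reads cannot be told apart over most of its length. Summed to 1 gene, the pair had 60.7 CPM at pH 7.4, 42.6 at pH 6.9 and 50.9 at pH 6.4, and the fall at pH 6.4 was no longer called (log2 -0.26, adjusted p = 0.325). The log2 ratio of the pair to HSPA8 was -5.37 ± 0.29 at pH 7.4 and -5.13 ± 0.24 at pH 6.4, a difference of 0.24 that did not pass (p = 0.286, exact permutation test).

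**Figure D2:**
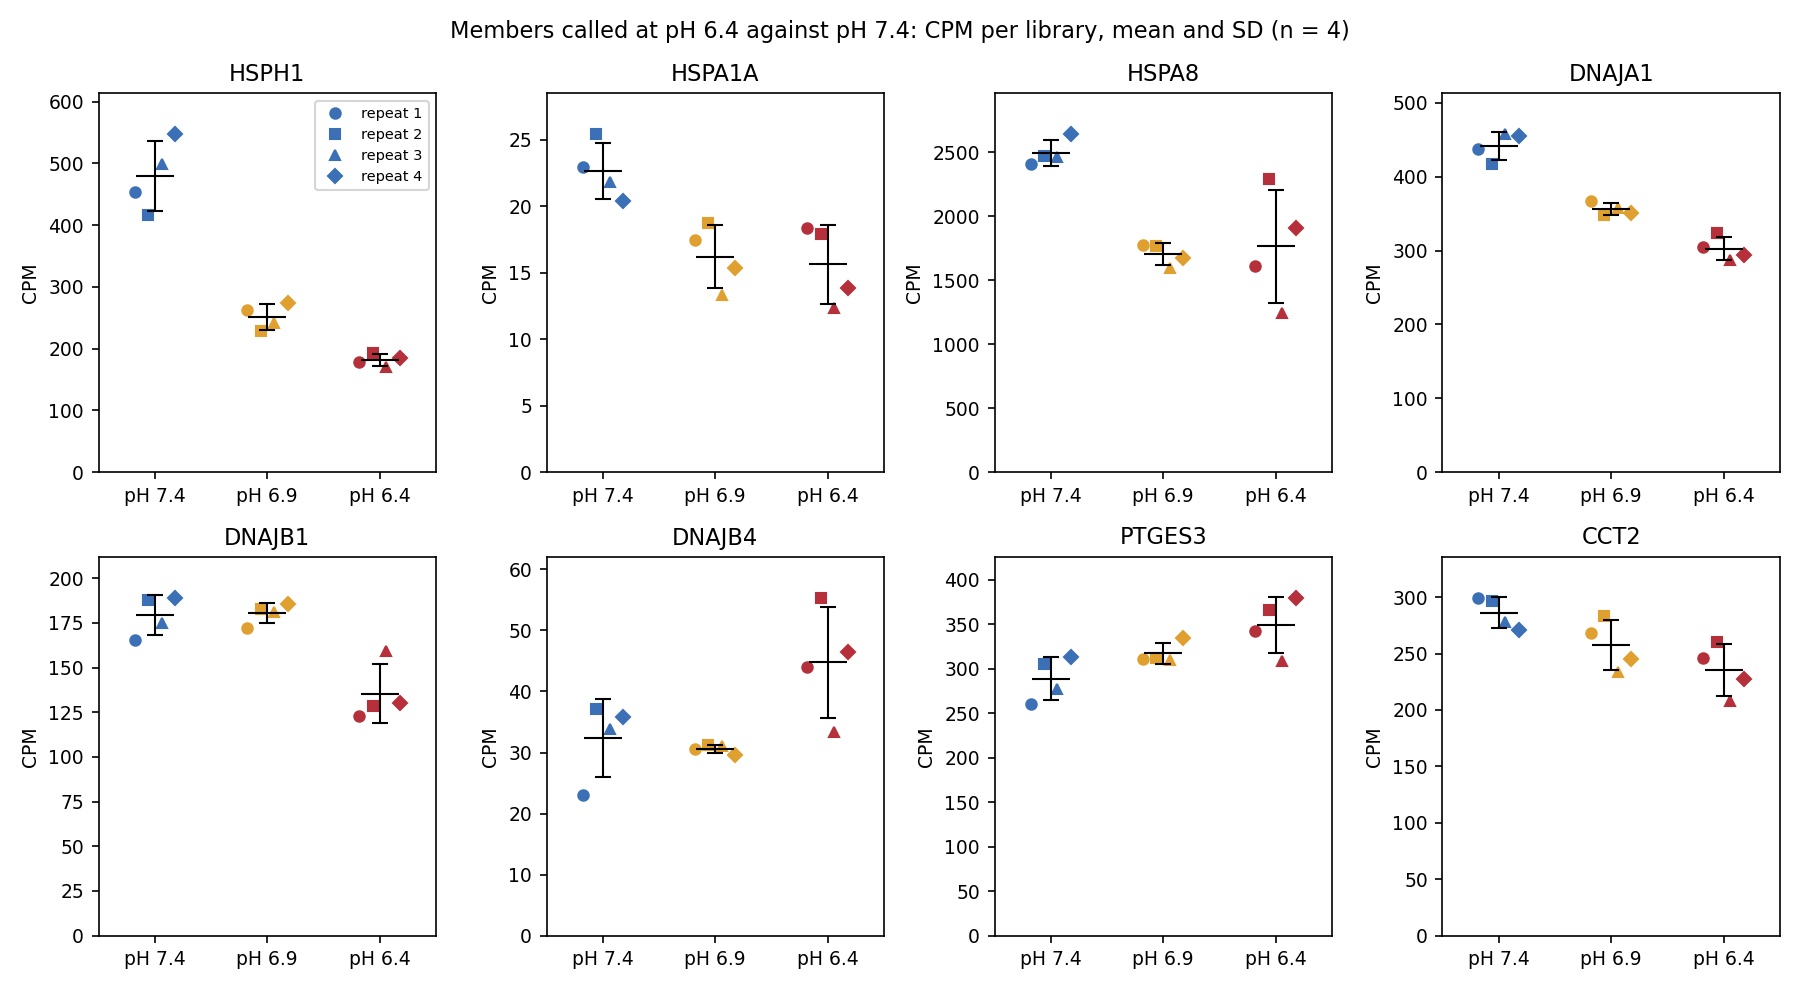
CPM of the 8 members called at pH 6.4 against pH 7.4, by medium; symbols mark the 4 repeats and black bars the mean and SD. The libraries of pH 6.4 lie below all of those at pH 7.4 for HSPH1, HSPA1A, HSPA8, DNAJA1, DNAJB1 and CCT2, while those of DNAJB4 and PTGES3 overlap.

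DNAJ proteins recruit HSP70 to clients, and of the 6 members 2 fell and 1 rose at pH 6.4 against pH 7.4. DNAJA1, a farnesylated partner of HSPA8, stood at 437, 417, 458 and 455 CPM at pH 7.4, at 367, 348, 358 and 351 CPM at pH 6.9, and at 305, 324, 288 and 294 CPM at pH 6.4. As with HSPH1, the 3 media did not overlap and the means followed acidity. DNAJA1 fell at pH 6.4 (log2 -0.55, SE 0.067, adjusted p = 8e-05) and the call held in every refit, with -0.44 within repeats 1 and 2 and -0.64 within repeats 3 and 4. At pH 6.9 it fell by 0.31 (SE 0.067, adjusted p = 0.0483), a call that was lost in all 8 refits that left out 1 library (adjusted p from 0.0745 to 0.191). Between pH 6.9 and pH 6.4 it fell by 0.24 (adjusted p = 0.0282), a call lost without repeat 1, 3 or 4 at pH 6.9 and without repeat 1 or 4 at pH 6.4 (adjusted p up to 0.0873). Neither of these smaller calls held within a pair of repeats or with no filter on low counts. Its relative DNAJA2 had 84.4 ± 3.68, 75.1 ± 2.78 and 85.2 ± 7.65 CPM at pH 7.4, 6.9 and 6.4 and was not called. The log2 ratio of DNAJA1 to DNAJA2 was 2.39 ± 0.099 at pH 7.4, 2.25 ± 0.066 at pH 6.9 and 1.83 ± 0.094 at pH 6.4, and the pH 6.4 ratios lay below all others (p = 0.0286, adjusted p = 0.0857, exact permutation test).

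DNAJB1, the HSP40 that drives HSP70 in protein disaggregation, differed from DNAJA1 in its order over the media. It stood at 165, 188, 175 and 189 CPM at pH 7.4, at 172, 183, 181 and 186 CPM at pH 6.9, and at 123, 129, 159 and 130.2 CPM at pH 6.4. The pH 6.9 libraries lay among those at pH 7.4, and all pH 6.4 libraries lay below both. The fall at pH 6.4 was 0.41 against pH 7.4 (SE 0.086, adjusted p = 0.00291) and 0.42 against pH 6.9 (SE 0.086, adjusted p = 0.00723), whereas pH 6.9 differed from pH 7.4 by 0.01, with a 95% interval from -0.17 to 0.19. Within repeats 3 and 4 both calls were lost (adjusted p = 0.113 and 0.227). The gene overlaps TECR on the other strand.

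DNAJB4, another HSP40, was among the few members that rose. It stood at 23.1, 37.1, 33.8 and 35.8 CPM at pH 7.4, at 30.6, 31.2, 31.0 and 29.7 CPM at pH 6.9, and at 44.0, 55.4, 33.3 and 46.5 CPM at pH 6.4. Repeat 3 at pH 6.4 lay within the pH 7.4 range, and the other 3 libraries lay above it. The rise was 0.46 against pH 7.4 (SE 0.15, adjusted p = 0.0337) and 0.55 against pH 6.9 (SE 0.15, adjusted p = 0.0268). The first call was lost without repeat 1 or 3 at pH 7.4 and without repeat 1, 2 or 4 at pH 6.4 (adjusted p up to 0.122), the second without any pH 6.9 library and without repeat 1, 2 or 4 at pH 6.4 (up to 0.104), and within either pair of repeats (0.0629 and 0.259). Scaling by library size alone, fitting only the 2 media and repeats 3 and 4 alone also lost the call against pH 7.4 (adjusted p = 0.0602, 0.0709 and 0.428). DNAJB4 overlaps GIPC2 on the same strand. DNAJB6, which holds back aggregation, had 280 ± 6.37 CPM at pH 7.4 and 280 ± 42.4 at pH 6.4, a log2 difference of -0.00 with an interval from -0.20 to 0.20. DNAJA4 was at most 0.419 CPM in any library and 0 in repeat 1 at pH 7.4, too few counts to read a change (interval from -1.54 to 1.91).

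The HSP90 genes encode an abundant pair per length. Over the length covered by all annotated exons of each gene, HSP90AB1 had 581 ± 11.999 CPM per kb at pH 7.4, HSPA8 514 ± 21.01, HSP90AA1 329.5 ± 18.3 and DNAJA1 162 ± 6.95. These ranges were apart from each other. The exons cover 4.849 kb for HSPA8 and 2.98 kb for HSP90AB1, while their longest coding transcripts have 2463 and 2674 bases. The order of these 2 genes therefore depends on the length used. The stress-inducible isoform HSP90AA1 stood at 1635, 1792, 1660.1 and 1829.5 CPM at pH 7.4, at 1642, 1807.5, 1433 and 1589 CPM at pH 6.9, and at 1822, 2098, 1630.1 and 1964 CPM at pH 6.4. The constitutive HSP90AB1 stood at 1769.7, 1731, 1683.5 and 1740.2 CPM at pH 7.4, at 1645, 1651, 1505 and 1534 CPM at pH 6.9, and at 1897, 2336, 1511 and 2021 CPM at pH 6.4. At pH 6.4 both were lowest in repeat 3, which for HSP90AB1 lay below all pH 7.4 libraries while the other 3 lay above them. Neither gene was called at pH 6.4 against pH 7.4 (log2 0.12, adjusted p = 0.374, and 0.17, adjusted p = 0.264). Their intervals ran from -0.08 to 0.32 and from -0.06 to 0.39. Without repeat 1 at pH 7.4, repeat 2 at pH 6.9 and repeat 3 at pH 6.4, HSP90AB1 was called at 0.30 (adjusted p = 0.0278), as it was without that repeat 3 alone (0.27, adjusted p = 0.0191). Against pH 6.9 the block by repeat number called both, at 0.21 (adjusted p = 0.01) and 0.28 (adjusted p = 0.018). The log2 ratio of HSP90AA1 to HSP90AB1 was -0.00 ± 0.084, 0.03 ± 0.085 and -0.04 ± 0.11 at pH 7.4, 6.9 and 6.4, so the balance of the isoforms differed by less than the spread between libraries.

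Of the 6 HSP90 co-chaperones, 1 rose and 5 were not called at pH 6.4 against pH 7.4. PTGES3, known as p23, which holds HSP90 in its closed state, stood at 260.3, 305, 277 and 313 CPM at pH 7.4, at 311, 312, 310.1 and 335 CPM at pH 6.9, and at 342, 366, 309 and 379.8 CPM at pH 6.4. Only repeat 3 at pH 6.4 lay within the pH 7.4 range. The rise was 0.27 (SE 0.083, adjusted p = 0.0226), and it was lost without repeat 1 or 3 at pH 7.4 and without repeat 2 or 4 at pH 6.4 (adjusted p up to 0.082), with scaling by library size alone (0.0667), in a fit to the 2 media only (0.0535) and within repeats 3 and 4 (0.258). CHORDC1, a partner of HSP90 with zinc-binding domains, had 59.9 ± 9.85, 47.5 ± 3.04 and 46.8 ± 7.87 CPM at pH 7.4, 6.9 and 6.4 and narrowly missed the threshold at pH 6.4 (log2 -0.36, adjusted p = 0.0507); it passed with the block (adjusted p = 0.00882), by DESeq2 (0.0446), with library size alone (0.0117) and with no or a stricter filter (0.0475 and 0.0357). CACYBP, a Siah-binding adaptor, had 129 ± 6.77 CPM at pH 7.4 and 115 ± 6.38 at pH 6.4, with no overlap, and was not called (adjusted p = 0.09), but passed with the block (log2 -0.17, adjusted p = 0.0152) and with scaling by library size alone (-0.25, adjusted p = 0.0173). AHSA1, the activator of the HSP90 ATPase, had 141 ± 10.7, 124 ± 13.8 and 149 ± 27 CPM and passed with the block at pH 6.4 against pH 6.9 (0.26, adjusted p = 0.0163, against 0.143 without). The adaptor STIP1, with 323 ± 39.1, 279 ± 17.9 and 314 ± 51.5 CPM, and the immunophilin FKBP4, with 134 ± 22.9, 122 ± 16.1 and 137 ± 17.96 CPM, were not called in any comparison.

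The 8 CCT subunits stand in the particle in equal number. Per kb of exonic length their levels at pH 7.4 ran from 107 ± 2.72 CPM for CCT4, 104 ± 2.83 for CCT6A and 98.9 ± 5.06 for CCT8 through 95.7 ± 8.03 for CCT7, 95.5 ± 4.38 for CCT3 and 91.0 ± 3.19 for CCT5 to 66.2 ± 3.22 for CCT2 and 50.3 ± 1.27 for TCP1. The libraries of neighbours in this order overlapped down to CCT5, and CCT2 and TCP1 stood below the rest. The length is that covered by all annotated exons, 2.83 kb for CCT4 and 4.322 kb for CCT2. Their longest coding transcripts have 2520 and 2189 bases. The order therefore depends on the length used and cannot be read as a ranking of the subunits. Against pH 7.4, 1 subunit fell at pH 6.4 and 7 were not called, with estimates from -0.28 to 0.17. CCT2 stood at 299.6, 296, 278 and 271 CPM at pH 7.4, at 268, 283, 234 and 245 CPM at pH 6.9, and at 246, 260.2, 208 and 227 CPM at pH 6.4. Its pH 6.4 libraries lay below all pH 7.4 libraries (log2 -0.28, SE 0.086, adjusted p = 0.0231). The call was lost without repeat 1 or 2 at pH 7.4, without repeat 4 at pH 6.4 (adjusted p up to 0.0647), within either pair of repeats, with no filter on low counts (0.0594) and without the 3 libraries named above (0.0951). With the block by repeat number CCT3 was also lower (-0.18, adjusted p = 0.00802) and CCT8 higher (0.16, adjusted p = 0.0434), and against pH 6.9 CCT4 was higher (0.22, adjusted p = 0.0256) as was CCT8. Summed over the 8 subunits, the level was 2767 to 2877 CPM at pH 7.4, 2451 to 2762 at pH 6.9 and 2385 to 3056 at pH 6.4. At pH 6.9 against pH 7.4 all 8 estimates were below 0, from -0.17 to -0.04, but 0 subunits were called (0 also at an unadjusted p under 0.05, in edgeR, DESeq2 and limma-voom).

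HSPD1 and HSPE1 form the mitochondrial chaperonin and its lid. HSPD1 stood at 349, 397, 304 and 317 CPM at pH 7.4, at 368, 387, 286 and 305 CPM at pH 6.9, and at 396, 436, 290.1 and 317 CPM at pH 6.4. In each medium repeats 1 and 2 were above repeats 3 and 4, and the media overlapped (log2 0.07 at pH 6.4, adjusted p = 0.73). HSPE1 stood at 50.05, 50.4, 46.4 and 50.8 CPM at pH 7.4, at 45.0, 35.7, 42.4 and 42.5 CPM at pH 6.9, and at 45.3, 46.4, 40.5 and 40.3 CPM at pH 6.4. All pH 6.9 libraries lay below those at pH 7.4, at an adjusted p of 0.24, and the change at pH 6.4 was -0.20 (adjusted p = 0.114). HSPE1 shares 22.3% of its 75-base stretches with other genes, mostly the read-through gene HSPE1-MOB4, and it overlaps HSPD1, so its counts are uncertain.

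HSPB1, the small heat shock protein that holds unfolded clients in oligomers, differed more between repeats than between media. It stood at 107, 89.3, 164 and 168 CPM at pH 7.4, at 76.9, 87.2, 159.7 and 148 CPM at pH 6.9, and at 72.4, 65.0, 146 and 128 CPM at pH 6.4. Repeats 3 and 4 were 1.69, 1.88 and 1.99 times repeats 1 and 2 in the 3 media. The unblocked test did not call it (log2 -0.36, adjusted p = 0.388), and in the blocked fit it was lower at pH 6.4 against pH 7.4 (-0.40, SE 0.077, adjusted p = 0.00163). Every same-numbered pair went down, by a log2 change of -0.50 within repeats 1 and 2 (adjusted p = 0.0155) and -0.27 within repeats 3 and 4 (adjusted p = 0.118).

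HSF1 showed the same split. The factor's own gene stood at 68.8, 77.6, 108 and 110.0 CPM at pH 7.4, at 75.9, 81.5, 105 and 111 CPM at pH 6.9, and at 96.3, 112, 116 and 154 CPM at pH 6.4. Each pH 6.4 library was above both other libraries of its number. The estimate was 0.39 (SE 0.18, adjusted p = 0.104) without the block and 0.40 (SE 0.070, adjusted p = 0.000827) with it, and against pH 6.9 the block gave 0.36 (adjusted p = 0.00348). HSF1 overlaps DGAT1 and a further gene on the other strand, and no source states the strand setting of the counting. Its relative HSF2 stood at 49.1, 40.4, 41.1 and 40.7 CPM at pH 7.4, at 37.7, 42.9, 39.9 and 40.4 CPM at pH 6.9, and at 49.2, 51.7, 46.8 and 47.2 CPM at pH 6.4. Against pH 7.4 HSF2 was called only in refits without repeat 1 at pH 7.4 (0.26, adjusted p = 0.0261 when left out alone). HSF2 rose against pH 6.9 without overlap (0.28, SE 0.086, adjusted p = 0.0411), but the call was lost without repeat 1, 3 or 4 at pH 6.9, without repeat 1, 2 or 4 at pH 6.4 (adjusted p up to 0.126), with scaling by library size alone (0.134), with no filter (0.132) and within either pair of repeats. BAG3, the co-chaperone that links HSP70 to autophagy, had 85.5 ± 8.87, 82.6 ± 10.1 and 89.2 ± 12.3 CPM and was not called (log2 0.06 at pH 6.4, interval from -0.18 to 0.31).

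**Figure D3:**
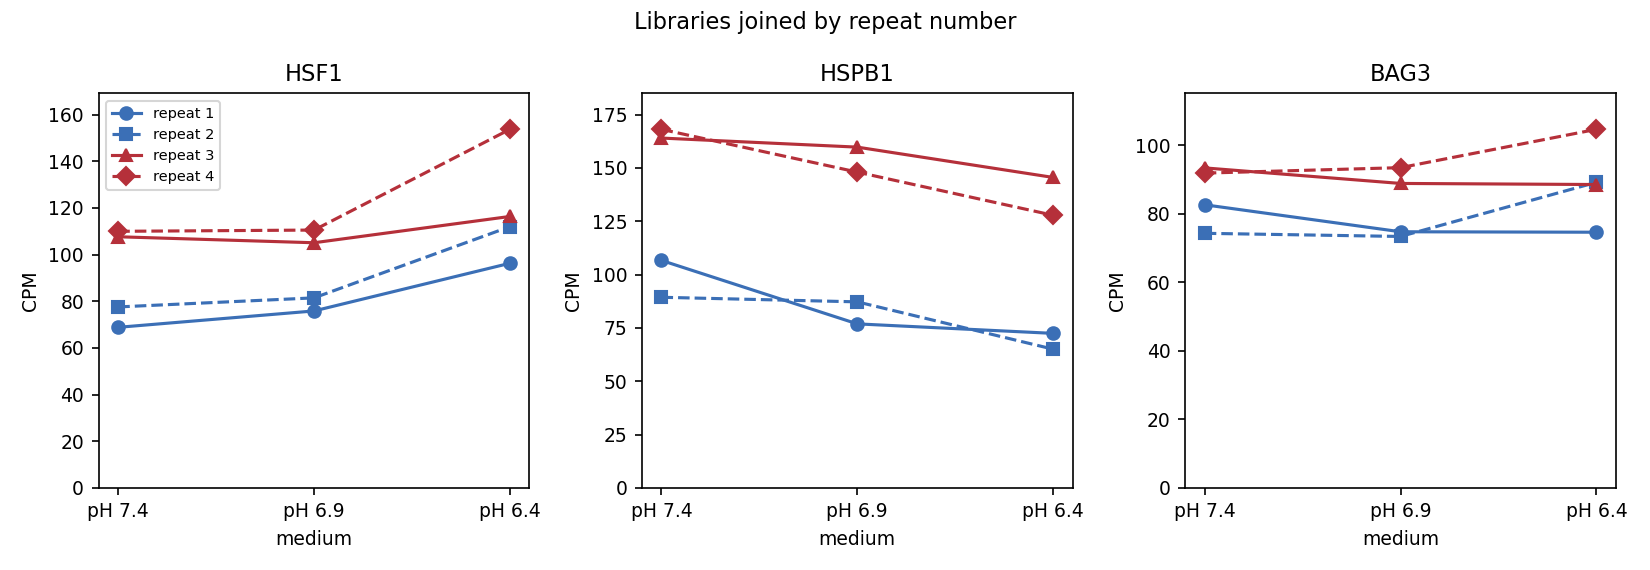
CPM of HSF1, HSPB1 and BAG3 in each medium, with libraries of the same repeat number joined. HSF1 and HSPB1 are higher in repeats 3 and 4 (red) than in repeats 1 and 2 (blue) in every medium, while within each repeat number HSF1 is highest and HSPB1 lowest at pH 6.4.

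The split by repeat was found across the table. In all 3 media 3 members (HSPB1, HSF1 and FKBP4) had repeats 3 and 4 above repeats 1 and 2 without overlap, 8.82% against 9.76% of all genes, and 7 members (HSPA4, HSPA1A, HSPA1B, HSPD1, CCT2, CCT3 and CCT8) had them below, 20.6% against 8.19%. These genes were picked by this pattern, and the labels name nothing that separates those repeats. Repeat 3 at pH 6.4 was the lowest of its group for 24 of 34 members, where it was lowest for 30.6% of all genes, and repeat 2 at pH 6.4 was the highest for 24 members and for 25.3% of all genes. The members together took 1.26 to 1.33% of counts at pH 7.4, 1.04 to 1.14% at pH 6.9 and 0.991 to 1.22% at pH 6.4. The TMM factor was 0.916 in repeat 2 at pH 6.4 and 0.939 in repeat 4, and 0.984 or more in the other 10 libraries; its part in the spread of the members was not tested.

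**Figure D4:**
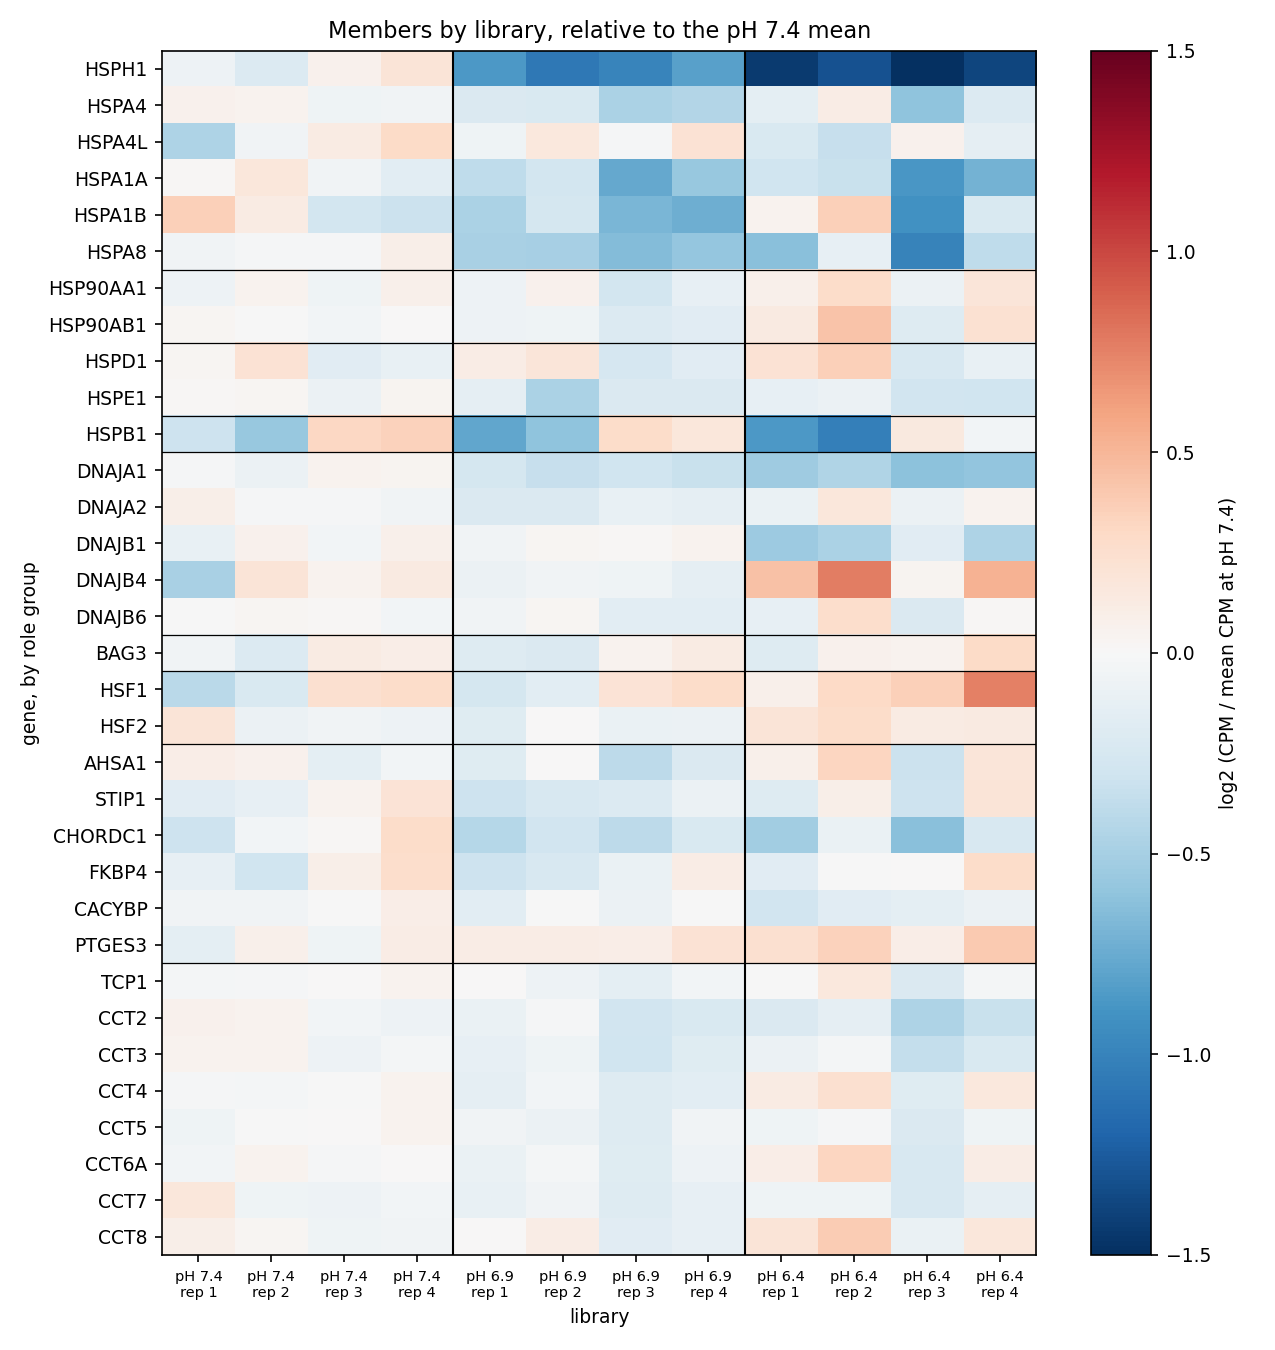
Log2 of each library's CPM over the mean at pH 7.4, for 33 members by role group (DNAJA4 is left out for its low counts), with the 4 repeats of each medium side by side. HSPH1 is blue throughout the acid media, DNAJA1 grades from pH 6.9 to pH 6.4, and repeat 2 at pH 6.4 is redder than repeat 3 for most genes, which was the lowest of its group for 24 of 34 members.

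At pH 6.9 the members leaned in 1 direction. Of 34 estimates 29 were below 0 against pH 7.4, where 48.2% of all genes were, and the median was -0.13 against 0.01 over all genes. The libraries did not overlap for 9 members, against 10.1% of all genes; all 9 were lower at pH 6.9. They were HSPH1, HSPA4, HSPA1A, HSPA8, HSP90AB1, HSPE1, DNAJA1, DNAJA2 and CCT4. The estimates were below 0 for 19 members at pH 6.4 against pH 7.4 and for 11 against pH 6.9, with a median of 0.10 where all genes had -0.01. Thus the libraries of HSPA8 and HSPA1A lay below those at pH 7.4 in both acid media, and those of DNAJB1 at pH 6.4 alone. At pH 6.9 the unblocked edgeR fit to all 12 libraries called neither HSPA8 nor HSPA1A (adjusted p = 0.0937 and 0.168). The block by repeat number called both (adjusted p = 0.0155 and 0.0122), and a fit to only the 2 media called HSPA8 (0.00402). HSPA1A summed with HSPA1B was called in neither acid medium (edgeR adjusted p = 0.325 at pH 6.4 and 0.261 at pH 6.9). HSP90AB1, at 1731 ± 35.8, 1583 ± 75.0 and 1941 ± 341 CPM at pH 7.4, 6.9 and 6.4, had its lowest mean in the middle medium.

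**Figure D5:**
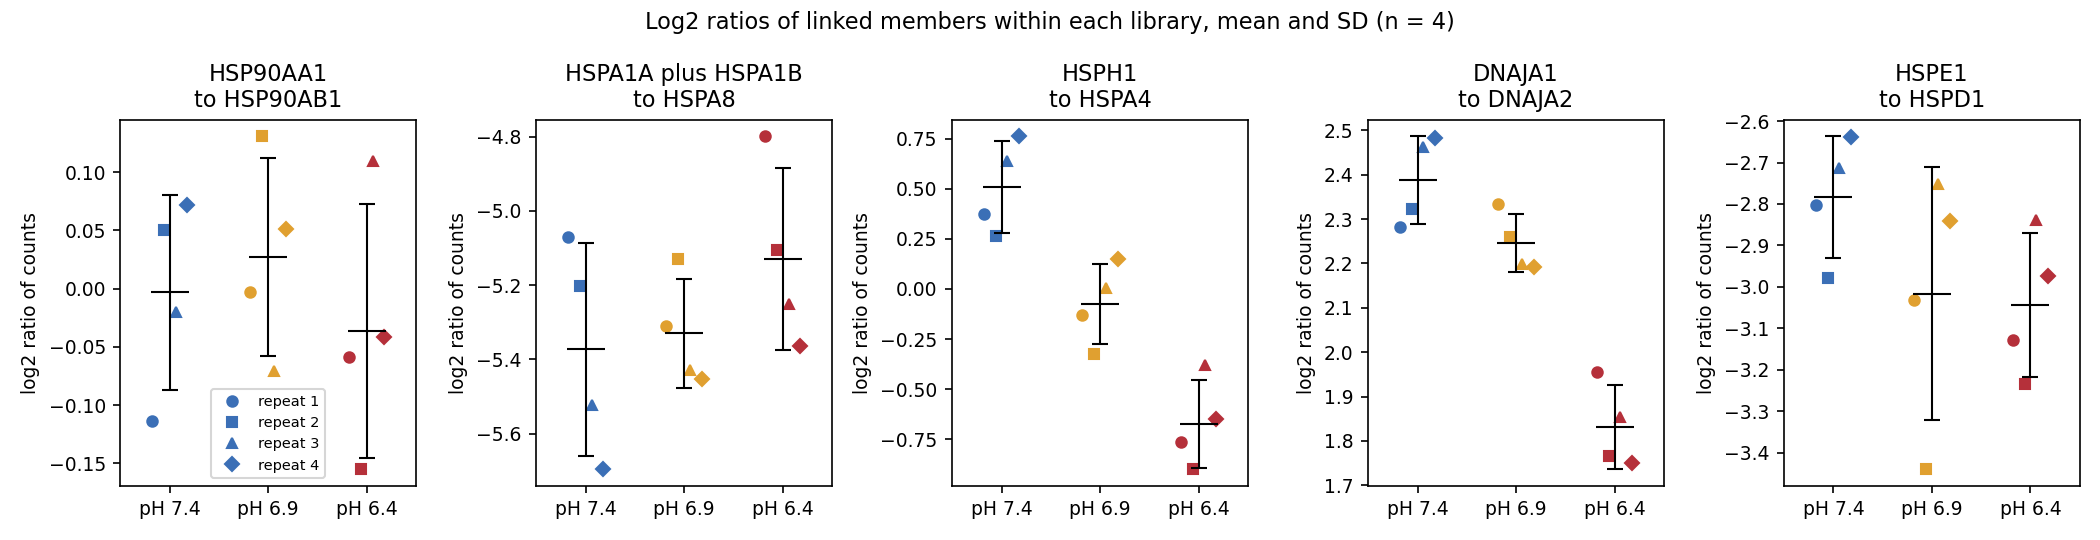
Log2 ratio of counts between linked members within each library, by medium, with the mean and SD over 4 libraries; each panel has its own axis. HSPH1 to HSPA4 steps down over the 3 media and DNAJA1 to DNAJA2 is lowest at pH 6.4, while the ratios of the HSP90 pair lie between -0.16 and 0.13 in all libraries.

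The wider chaperone network was read from 8 lists of 93 further genes, of which 86 were tested. In the most acid medium 11 rose and 17 fell against pH 7.4, 32.6% against 30.3% of all genes, so this share was near the background. At pH 6.9 against pH 7.4 edgeR called 0 of them (12 at an unadjusted p under 0.05, 3 higher and 9 lower; DESeq2 called 4 and limma-voom 0), where it called 0.724% of all genes. Between pH 6.9 and pH 6.4 it called 6 higher and 4 lower, 11.6% against 17% of all genes, which is below the background. Of the 6 other HSP70 and small heat shock proteins tested, 3 fell and 0 rose. HSPB8, the small heat shock protein that works with BAG3, fell from 20.9 ± 6.15 CPM at pH 7.4 to 7.31 ± 2.45 at pH 6.4 (log2 -1.51, adjusted p = 0.000638). HSPA12A fell by 1.25 (adjusted p = 0.00026) and the scarce HSPA2 by 1.14 (adjusted p = 0.0299), a call kept in 3 of 8 refits that left out 1 library (lost without repeat 2 or 3 at pH 7.4 or repeat 1, 2 or 4 at pH 6.4, adjusted p up to 0.0888).

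Among 8 other HSP70 co-chaperones 3 fell and 0 rose. BAG1, a nucleotide exchange factor, went from 80.4 ± 15.8 to 51.3 ± 6.17 CPM (log2 -0.65, adjusted p = 0.00303), ST13, the HSP70-interacting protein HIP, fell by 0.45 (adjusted p = 0.00102), and the exchange factor HSPBP1 by 0.54 (adjusted p = 0.0225). The HSPBP1 call was lost without repeat 3 or 4 at pH 7.4 and without repeat 1 or 2 at pH 6.4 (adjusted p up to 0.0735). ST13 has 16 pseudogene copies by symbol in the annotation, so its counts are less certain. Of 18 other DNAJ proteins 3 rose and 1 fell, with DNAJB5 at 0.56 (adjusted p = 0.00127) and DNAJC9, a histone chaperone, at -0.46 (adjusted p = 0.00207). DNAJC21 rose by 0.34 (adjusted p = 0.0164), a call lost without repeat 2 at pH 6.4 (0.0595). Of 14 other HSP90 co-chaperones 3 rose and 2 fell, among them RPAP3 at -0.40 (adjusted p = 0.0111), TOMM34 at 0.45 (adjusted p = 0.0207) and FKBP5 at 0.30 (adjusted p = 0.0161). With scaling by library size alone FKBP5 was not called (adjusted p = 0.0589), and the TOMM34 call was lost without repeat 1 or 2 at pH 7.4 or repeat 4 at pH 6.4 (up to 0.0818).

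Of 9 prefoldin and CCT helper genes 1 rose and 3 fell. PDCL3, a phosducin-like cofactor of CCT, fell from 21.7 ± 1.36 CPM at pH 7.4 to 9.93 ± 1.80 at pH 6.4 (log2 -1.12, adjusted p = 5.38e-05), with 16.5 ± 1.18 at pH 6.9, and PDCL fell by 0.32 (adjusted p = 0.00757). The prefoldin subunit PFDN2 rose by 0.66 (adjusted p = 0.00683). It overlaps NIT1, as BAG1 overlaps SPINK4, LONP1 RPL36 and TRAP1 DNASE1. Among the other genes named, HSPA12A overlaps ENO4, DNAJC9 FAM149B1 and MRPS16, TOMM34 PABPC1L and PDCL OR1K1. HSPA2, HSPB8, RPAP3, FKBP5, HSF4 and UBB also overlap annotated genes. PDCL3 has 6 pseudogene copies by symbol, UBB 5 and DNAJB5 1. Of the tubulins and actins, the main clients of CCT, 1 of 12 tested was called, TUBA1A at -0.51 (adjusted p = 0.0397), which overlaps TUBA1C and was lost without repeat 1 or 2 at pH 7.4 or repeat 1, 3 or 4 at pH 6.4 (up to 0.14). Of 12 mitochondrial chaperones and proteases 2 rose and 1 fell: TRAP1, the mitochondrial HSP90, rose from 58.3 ± 3.49 to 87.1 ± 10.2 CPM (log2 0.58, adjusted p = 0.000997), the protease LONP1 rose by 0.31 (adjusted p = 0.0361; not called with scaling by library size alone, 0.108, or without repeat 1, 2 or 3 at pH 7.4 or repeat 2 or 4 at pH 6.4, up to 0.126), and DNAJC15 fell by 0.45 (adjusted p = 0.0119). Among 7 regulators and other targets of heat shock factors 2 rose and 3 fell. HSF4 rose from 6.50 ± 0.653 to 12.2 ± 1.06 CPM (log2 0.91, adjusted p = 0.000437). HMOX1, a heme-degrading stress enzyme, fell by 0.62 (adjusted p = 0.00333) and the polyubiquitin gene UBB by 0.40 (adjusted p = 0.00758). SERPINH1 was also called, at 0.25 (adjusted p = 0.0167), as was HSBP1, at -0.27 (adjusted p = 0.0426).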

How the data were processed

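The authors deposited 1 table of raw read counts per gene for 12 libraries. Per the labels' protocols, 20 ng of RNA went into a stranded poly(A) kit, sequenced on a NextSeq500. The submitters' processing notes name STAR and featureCounts with the build GRCh38.p13 (hg38). No version, strand setting or rule for reads with several matches is stated there. Rows with no gene symbol held up to 0.424% of a library.

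edgeR 4.0.16 in R 4.3.3 was run on the deposited counts: filterByExpr kept 17544 genes, scaling was by TMM, and a robust quasi-likelihood model with the medium as its factor took in all 12 libraries (9 residual degrees of freedom). A call means an adjusted p (Benjamini-Hochberg, over all genes) under 0.05, and every adjusted p for a gene is from this test unless another is named. Standard errors and 95% intervals come from its F statistic. The test was tried on simulated counts drawn independently for each library. These held no deviation shared by repeat number, so they cannot show how the test behaves where libraries deviate together. Log2 ratios were compared by exact 2-sided permutation tests. Alternatives were DESeq2 1.42.0, limma 3.58.1 (voom), other scalings and filters, subsets of libraries and a replicate block.

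Libraries of the same repeat number deviated together from their group means, with correlations from 0.113 to 0.262 for pH 6.4 and pH 7.4 and from 0.264 to 0.470 for pH 6.4 and pH 6.9, so the numbers were taken to pair these libraries. For pH 6.9 and pH 7.4 repeats 1 to 4 gave 0.0798, 0.160, 0.277 and 0.352; repeat 1 fell under the limit of 0.1 required of every pair, so these were not taken as paired, although the other 3 lay within or above the range for pH 6.4 and pH 7.4. Of the 8 libraries of pH 6.4 and pH 6.9, 8 correlated best with their own number in the other medium. For pH 6.4 and pH 7.4 this held for 5 of 8, and likewise for 5 of 8 for pH 6.9 and pH 7.4. By this measure the block against pH 7.4 rests on weaker pairing. The pairing comes from the values, since the labels do not say what a number shares.

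Exons, overlaps and shared 75-base stretches came from GENCODE release 29 (GRCh38), and promoter sequences from RefSeq (GRCh38.p14). The members and the wider lists were chosen with earlier results of these data known. Every member is accounted for. Values in each library are given for up to 10 members called in any comparison, by largest log2 change at pH 6.4 against pH 7.4. They are also given for HSF1, HSPA1A, HSPA1B, HSPA8, HSP90AA1, HSP90AB1, HSPD1 and HSPE1 (HSPB1 was added after its values were seen). In each wider list up to 3 called genes with the lowest p at pH 6.4 against pH 7.4 are named. SERPINH1 and HSBP1 are named in addition. No 2 libraries were copies: at least 22391 genes differed in count in each of the 66 pairs.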

Additional observations from a re-analysis of the deposited data

Results flagged for a closer look

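Of 117 groups of 4 libraries tested for a library far from the other 3, 3 were picked out, where chance alone picks about 1 in 20. HSF2 stood at 49.1 CPM in repeat 1 at pH 7.4, against 40.4 to 41.1 CPM in the other 3 libraries. CCT7 stood at 386 CPM in the same library, against 326 to 334 CPM in the others; this library also had the fewest detected genes, and the part of that in these values was not tested. PTGES3 stood at 335 CPM in repeat 4 at pH 6.9, against 310.1 to 312 CPM in the others.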

How the results depend on the processing

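The falls of HSPH1 and DNAJA1 at pH 6.4 against pH 7.4 were called in all 20 refits, that of HSPA1A in all but the fit to repeats 1 and 2, that of DNAJB1 in all but the fit to repeats 3 and 4, and that of HSPA8 in all but both of these. Over 2036 refitted estimates of 102 member results 135 changed sign, all among the 63 results that no fit called. At pH 6.4 against pH 7.4 scaling by library size alone gave 0 members higher and 12 lower in edgeR, with all genes' median at -0.08 and 40.4% of called genes higher against 51.4% with TMM. Fitting only the 2 media gave 0 higher (3 unadjusted). The replicate block gave 4 and 10. Repeats 3 and 4 alone gave 0 higher (0 at an unadjusted p under 0.05) and 3 lower, with 1528 genes called. Leaving out repeat 1 at pH 7.4 and repeat 2 at pH 6.9 gave 1 higher and lost DNAJB4, PTGES3 and CCT2 (adjusted p = 0.0906, 0.0787 and 0.056), and leaving out repeat 3 at pH 6.4 too (chosen after seeing the data) gave 5. Leaving out 1 library gave 0 to 4 higher, 5 to 7 lower and 3795 to 6411 genes. The count of higher members was 0 without repeat 3 at pH 7.4 or without repeat 2 or 4 at pH 6.4, 1 without repeat 1 of either medium, and 4 without repeat 3 at pH 6.4.

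At pH 6.9 against pH 7.4, with 2 members lower and 127 genes called, DESeq2 gave 3 lower and 559 genes and only the 2 media 3 lower and 250 genes, each adding HSPA8; no filter gave 1 lower and 201 genes, repeats 1 and 2 alone 1 lower and 7 genes, and repeats 3 and 4 alone 0 and 0 (6 and 1194 unadjusted, edgeR). The replicate block, where 1 of 4 pairs missed the limit for pairing, gave 5 lower (adding HSPA4, HSPA1A and HSPA8, adjusted p = 0.0282, 0.0122 and 0.0155) and 947 genes, 5.4% of those tested. Leaving out the 2 libraries gave 1 lower and 20 genes, and all 3 libraries 1 and 69. Leaving out 1 library gave 1 lower each time and 39 to 80 genes.

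At pH 6.4 against pH 6.9, DESeq2 gave 4 members higher, library size alone 1 (with 38.2% of called genes higher against 51.9%), and the replicate block 8, with 5456 genes. Repeats 1 and 2 alone gave 1 higher and 1906 genes, repeats 3 and 4 alone 0 higher, 0 lower and 0 genes (3, 3 and 3161 unadjusted, edgeR), and leaving out the 3 libraries 10 higher and 6112 genes. Leaving out 1 library gave 0 to 9 higher, 2 to 3 lower and 1171 to 4944 genes: 9 higher and 4944 genes without repeat 3 at pH 6.4, 1 higher without repeat 2 at pH 6.9, and 0 higher without any other. The gene count was 1171 and 1231 without repeats 2 and 4 at pH 6.4, and 1570, 1628 and 1880 without repeats 1, 3 and 4 at pH 6.9. The cause of these differences was not tested, and fits to 2 repeats rest on fewer libraries.

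Some ratios near 0 changed sign: HSP90AA1 to HSP90AB1 within repeats 3 and 4, at 0.0081, -0.036 and 0.044 for pH 6.4 and pH 6.9 against pH 7.4 and pH 6.4 against pH 6.9, and within repeats 1 and 2 the HSPA1 pair to HSPA8 at pH 6.9 against pH 7.4, at -0.083, and HSPE1 to HSPD1 at pH 6.4 against pH 6.9, at 0.055. Leaving out 1 library, these ran from -0.082 to 0.0062 and from -0.0067 to 0.063 for the HSP90 pair against pH 7.4, from -0.064 to 0.14 for the HSPA1 pair, and from -0.17 to 0.061 for HSPE1. Depth limits DNAJA4, whose change could not be read in either direction.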
